A study of Mus musculus with 30 samples.

Results

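Liver RNA of 5 mice given carbon black nanoparticles was compared with liver RNA of 5 control mice. The 10 arrays were chosen by title alone. They are the exposed animals numbered 193, 194, 195, 196 and 197 and the control animals numbered 570, 572, 573, 574 and 575, out of 30 animals in the series. The exposed mice and the control mice each carry 3 blocks of closely spaced numbers, and these are the second block of each, called run 2 here. What such a block stands for is not stated in the labels, nor whether the second one of exposed mice belongs with the second one of controls, so a difference between runs and a difference between treatments cannot be fully told apart.

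All mice were female C57BL/6, bought at 5 to 6 weeks of age. Exposed mice had received 0.162 mg of Printex 90, a commercial carbon black made of nanoparticles, through the trachea in 40 µl of fluid followed by 150 µl of air. The fluid was 0.9% NaCl with 10% cell-free lung lavage fluid of the same strain. For control mice the labels give the treatment as none, and whether they received the fluid without particles is not stated there. The labels give neither the time from instillation to sampling nor the hour of sampling. Each array held the RNA of 1 liver in Cy5 and a commercial universal mouse reference RNA in Cy3, and every value below is a log2 ratio of liver over reference. Precision is limited by having 5 animals per group. In whole liver, fewer cells of a type and less RNA per cell cannot be told apart.

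Particles given through the airway mostly stay in the lung, where they set off inflammation. The liver can respond at a distance, since hepatocytes answer cytokines from the blood with acute phase proteins such as serum amyloid A, and a few particles may reach the liver and its resident macrophages, the Kupffer cells. Hepatocytes also follow hormones. Growth hormone acts through the transcription factor STAT5, which switches on feedback inhibitors of its own receptor such as Socs2 and Cish, while corticosterone acts through the glucocorticoid receptor, with Fkbp5 among its targets.

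The median Cy5 signal lay between 116 and 155 in exposed mice and between 112 and 196 in control mice, and the share of probes with a Cy5 signal well above background was 52.2% to 67.3% in exposed mice and 42.8% to 79.2% in control mice. The array of control animal 572 had the lowest of these shares and 441 spots marked as outliers, against 95 to 189 on the other 9 arrays. An array of control run 3 on the same slide, of animal 596, stood at 45.12% and 550 spots. Over 6 quality measures and the first 3 principal components the smallest p was 0.0952, for the third component (two-sided exact permutation test; smallest p possible 0.00794). No single measure could have passed after adjustment over these 9 tests. Pairs of arrays correlated at 0.971 to 0.986 within exposed mice, at 0.960 to 0.982 within control mice and at 0.952 to 0.984 between them. The samples read as liver: the mean log2 ratio over 9 hepatocyte markers lay between 4.80 and 5.73 in exposed mice and between 4.60 and 5.76 in control mice, with albumin (Alb) at 4.35 and 4.70 on average. Of 16 markers of pancreas, fat, kidney, lung and muscle on the array, 3 were bright enough to be tested.

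No gene passed the test between exposed and control mice of run 2. Of 23607 probes tested, 0 (0%) had an adjusted p under 0.05 (limma moderated test, slide as a random block, Benjamini-Hochberg adjustment). The smallest adjusted p among named genes was 0.702. At an unadjusted p under 0.05 stood 1584 probes (6.71%), of which 1157 were higher (4.9%) and 427 lower (1.81%) in exposed mice. This split moved with the scaling: higher probes made up 73% here, 49.6% with the scanner software's processed signals, 51.3% with the deposited value table and 28.1% with each array centred on its median. Among named genes, 7314 of 12188 had a positive difference (60%) and the median difference was 0.03 on the log2 scale. Median centring moved that median by -0.14, to -0.11, so a small positive or negative median of a gene list below depends on the scaling. At an unadjusted p under 0.05 stood 770 named genes (6.32%). In 66 named genes every exposed animal lay above every control animal (0.542%), and in 16 every exposed animal lay below (0.131%). The median SE of a difference was 0.10. On data simulated from these arrays the same fit recovered 66% of probes shifted by 0.5 on the log2 scale and 96% of those shifted by 1. There 50 probes were shifted at each of several sizes at once, which makes the adjusted threshold easier to pass. These shares therefore do not carry over to a comparison in which few or no probes differ. The common reference RNA in Cy3 gave 0 of 26252 probes past the threshold (0%) and 494 (1.88%) at an unadjusted p under 0.05.

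The smallest p of all probes belonged to 2 probes without a gene symbol here. Probe A_52_P1068216 stood at 2.60, 1.96, 2.91, 2.92 and 1.90 in exposed mice, in the order of their numbers, and at 0.96, 0.59, 0.62, 1.52 and 0.50 in control mice. The groups did not overlap, and the exposed animal was higher on 4 of 4 slides that held both groups. The difference was 1.61 ± 0.29 (SE; 3.06-fold; adjusted p = 0.127), and it passed when limma's array weights were used (1.77; adjusted p = 0.0419) or when control animal 574 was left out (1.81; adjusted p = 0.0323). Probe A_52_P5855 followed with 2.13, 1.71, 2.87, 2.60 and 1.64 in exposed mice, against 0.43, 0.80, 0.48, 1.28 and 0.23 in control mice. These groups did not overlap either, and the difference was 1.55 ± 0.31 (2.93-fold; adjusted p = 0.334). Neither probe showed such a gap in the other runs: A_52_P1068216 differed by 0.25 in run 1 and by -0.32 in run 3, although the difference between the run 2 and run 3 contrasts did not pass either (1.93; adjusted p = 0.227).

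The named genes with the widest gaps included growth hormone feedback genes. Socs2, a suppressor of cytokine signalling that dampens the growth hormone receptor, stood at 3.27, 2.53, 2.25, 3.61 and 2.24 in exposed mice and at 0.23, 1.04, 2.03, 2.47 and -0.19 in control mice. Exposed mice were all above 2. Control animal 574 lay inside their range, 573 came near it and the other 3 were far below. The difference was 1.68 ± 0.43 (SE; 3.20-fold; 95% interval 1.74-fold to 5.90-fold; adjusted p = 0.702), and the exposed animal was higher on 4 of 4 shared slides, by 0.07 to 3.80. Cish, a related STAT5-driven inhibitor, stood at 2.93, 2.74, 3.03, 3.25 and 1.18 in exposed mice and at 0.62, 0.98, 1.87, 2.87 and -0.10 in control mice. Exposed animal 197 lay among the controls and control animal 574 among the exposed, so the groups overlapped. The Cish difference was 1.43 ± 0.44 (2.69-fold; adjusted p = 0.702). In runs 1 and 3 the Socs2 difference was 0.26 ± 0.44 and -0.47 ± 0.43, and that of Cish 1.0 ± 0.45 and -0.49 ± 0.44. Neither gene's run 2 difference differed from that in run 1 past the threshold (adjusted p = 0.509 for Socs2 and 0.853 for Cish) or from that in run 3 (0.893 and 0.948).

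The Cish promoter is shown because it carries paired copies of the STAT-type motif TTCNNNGAA right at the gene's start. The motif reads the same on both strands, and its matches are in capitals. The window runs from 250 bases before to 50 bases after the start on the plus strand of mouse build GRCm38.p6, chr9:107296409-107296708 (RefSeq). The first match begins at base 1 of the transcript and the second at base 12.
Cish: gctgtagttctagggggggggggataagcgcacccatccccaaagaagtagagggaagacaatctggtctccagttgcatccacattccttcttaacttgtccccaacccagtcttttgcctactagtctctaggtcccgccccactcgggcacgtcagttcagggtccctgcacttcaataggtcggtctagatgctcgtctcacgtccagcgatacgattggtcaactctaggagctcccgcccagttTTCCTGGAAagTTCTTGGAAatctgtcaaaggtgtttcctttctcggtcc
Of 32851 promoter windows of this length, 8.3% hold the motif and 0.457% hold it 2 or more times. The windows of Hhex and Onecut1 hold 0 matches, which says only that these letters are not in those windows. Socs2 was looked for as well, but the promoter set used here holds no window for it.

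Of the 17 tested members of the growth hormone and sex-dependent list, 12 had a positive difference and the median was 0.26 on the log2 scale, against 0.03 over all named genes. The median of the list was 0.10 with processed signals, 0.15 with the value table and 0.13 with median centring. None passed the adjusted threshold, while 5 members were higher at an unadjusted p under 0.05 (background 4.71%) and 0 were lower (background 1.61%). Besides Socs2 and Cish these were Hsd3b5, a male-type steroid dehydrogenase (1.30 ± 0.49), Elovl3, a fatty acid elongase (0.75 ± 0.33), and Sult3a1, a female-type sulfotransferase (1.12 ± 0.54). Male-type and female-type genes are thus both among them. Bcl6, a repressor that STAT5 holds down, stood at -0.65 ± 0.55. The mean log2 ratio over the list lay between 3.24 and 3.75 in exposed mice and between 2.67 and 3.63 in control mice, so that the ranges overlapped. In runs 1 and 3 the median of the list was 0.11 and -0.23. Against the control mice of runs 1 and 3, the list median was 0.002 for exposed mice of run 2. For control mice of run 2 it was -0.37.

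**Figure D1:**
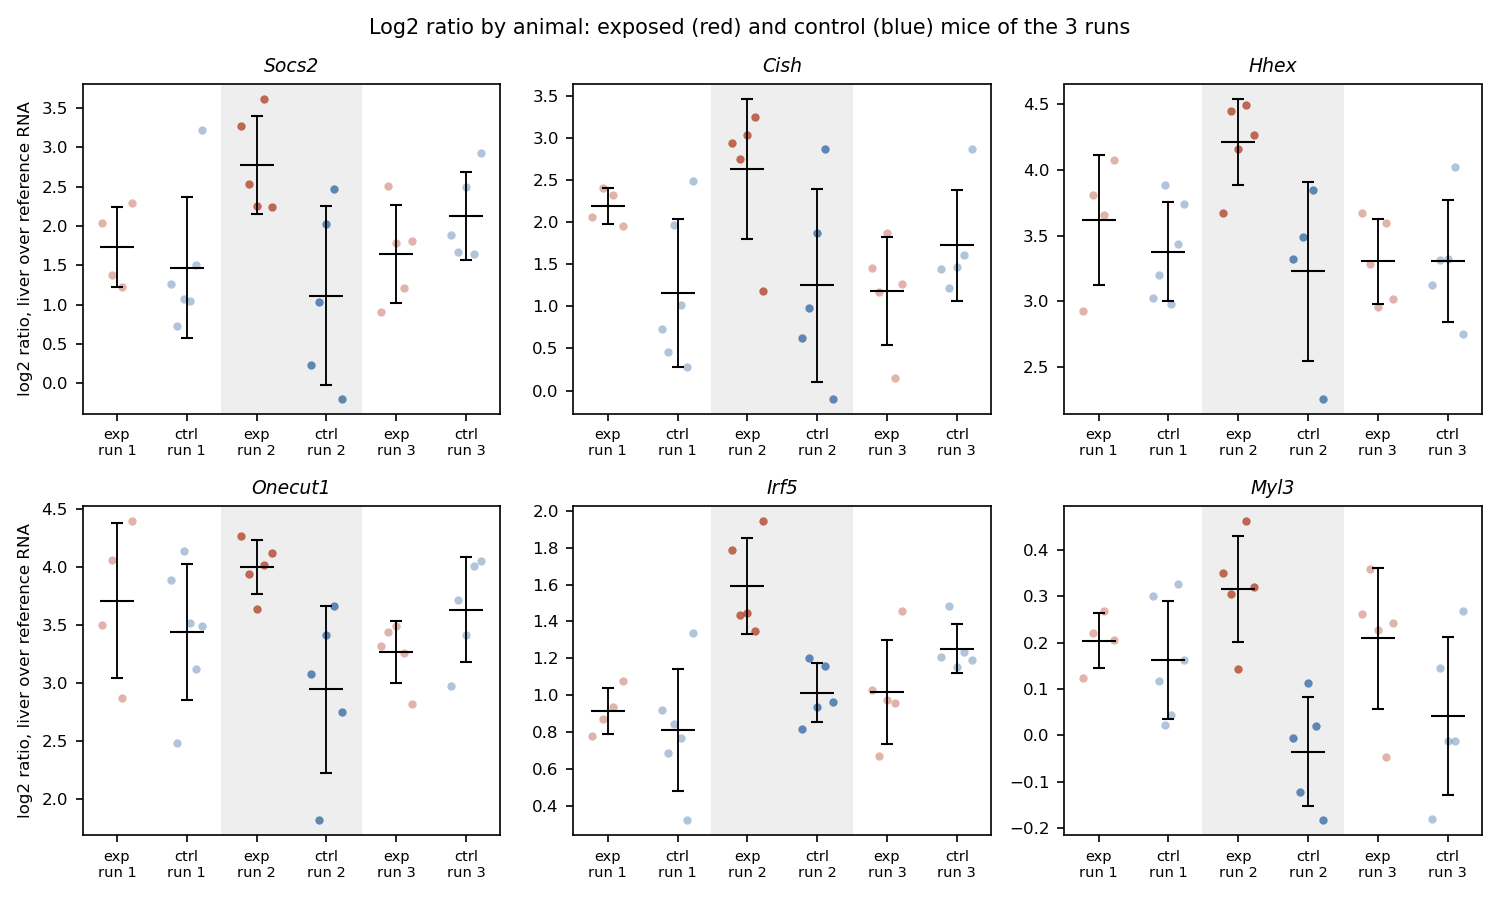
Log2 ratio of liver over reference RNA for each animal, by group and run, for Socs2, Cish, Hhex, Onecut1, Irf5 and Myl3. Points are animals (red exposed, blue control), bars are the mean ± SD, and run 2 is shaded. In run 2 exposed and control mice did not overlap for Irf5 and Myl3, and control values of Socs2 spread from -0.19 to 2.47.

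Liver transcription factors stood near the top of the ranking. Hhex, a homeobox factor needed for liver and bile duct development, stood at 3.67, 4.45, 4.16, 4.50 and 4.27 in exposed mice, against 3.32, 3.49, 3.85 and 2.26 in 4 control mice, since the spot of animal 572 was marked as an outlier and left out. Exposed animal 193 alone lay within the range of the controls. The difference was 0.97 ± 0.26 (SE; 1.96-fold; adjusted p = 0.702), and a second Hhex probe gave 0.81 ± 0.21. Onecut1, the hepatocyte factor HNF6, stood at 4.27, 3.94, 3.64, 4.01 and 4.12 in exposed mice and at 3.07, 1.82, 3.42, 3.66 and 2.75 in control mice. Control animal 574 just reached the lowest exposed animal. The difference was 1.02 ± 0.28 (2.03-fold; adjusted p = 0.702), but 0.12 with processed signals. Both genes had a positive difference on 4 of 4 shared slides. Without control animal 575 the Hhex difference was 0.64. In runs 1 and 3 Onecut1 differed by 0.24 and -0.40 and Hhex by 0.24 and -0.01.

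Irf5 and Myl3 had the smallest p of all named genes, with differences of moderate size. Irf5, an interferon regulatory factor of macrophages and other immune cells, stood at 1.79, 1.43, 1.45, 1.35 and 1.95 in exposed mice and at 0.82, 1.20, 0.93, 1.16 and 0.96 in control mice. Every exposed animal was above every control animal, and the difference was 0.58 ± 0.14 (1.50-fold; 95% interval 1.23-fold to 1.82-fold; adjusted p = 0.702). Myl3, a myosin light chain of heart and slow muscle, stood at 0.35, 0.31, 0.14, 0.46 and 0.32 in exposed mice and at -0.01, -0.12, 0.11, 0.02 and -0.18 in control mice. Again the groups did not overlap, but the difference was only 0.36 ± 0.08 (1.28-fold). For Irf5 the run 1 and run 3 differences were 0.10 and -0.23, and the gap to run 3 was 0.82 (adjusted p = 0.445).

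Among the 24 named genes with the smallest p, 21 stood higher in exposed mice and 3 lower, and all had an adjusted p of 0.702. The lower ones were Cd3g, a T cell receptor chain (-0.40 ± 0.11), Rftn2, a lipid raft protein (-0.25 ± 0.07, with its other probe at 0.07), and the zinc finger gene Zfp503 (-0.44 ± 0.13). Cd3g lay between -2.21 and -1.67 in exposed mice and between -1.87 and -1.37 in control mice, so that the ranges overlapped. Higher genes included Abcb1b, a drug exporter (0.38 ± 0.10), although its other probe stood at -0.26 ± 0.16. Also higher were Dnajb12, a chaperone of the endoplasmic reticulum (0.29 ± 0.08), Apbb3, an adaptor that binds amyloid precursor proteins (0.48 ± 0.13), Rnf5, a ubiquitin ligase (0.25 ± 0.07), and Aldh7a1, a lysine-degrading dehydrogenase (0.50 ± 0.14). Myc, the growth-promoting transcription factor, stood at 0.72 ± 0.21, with its other probes at 0.64 and 0.20, and Kcnh2, a potassium channel, at 0.48 ± 0.14. Rn28s1, a row named for ribosomal RNA, stood at 0.66 ± 0.18. Eif4ebp3, which represses translation by binding the initiation factor eIF4E, stood at 0.74, 1.18, 1.81, 1.57 and 0.72 in exposed mice and at 0.77, 0.44, 0.76, 0.59 and 0.22 in control mice. Exposed animals 193 and 197 lay within the control range, and the difference was 0.66 ± 0.20 (1.58-fold), beside 0.86 in run 1 and 0.56 in run 3. Ptov1, Ocel1, Mtus2, Bud23, Ppp1r37 and Dtx2 stood between 0.22 and 0.73.

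Among genes that follow corticosterone and fasting, Errfi1, an inhibitor of the EGF receptor, lay between 2.90 and 3.45 in exposed mice and between 0.83 and 3.48 in control mice. Its difference was 1.11 ± 0.35 (2.16-fold; adjusted p = 0.702). Fkbp5, a co-chaperone of the glucocorticoid receptor, stood at 1.70, 2.65, 2.26, 1.87 and 1.29 in exposed mice, against 0.69, -0.29, 3.52, 0.79 and -0.06 in control mice. Control animal 573 was above all exposed animals and the other 4 controls were below them all. The difference was 0.99 ± 0.44 (1.99-fold; adjusted p = 0.715), while 2 other Fkbp5 probes stood at 0.02 and 0.03. Without control animal 573 the difference was 1.66 (adjusted p = 0.106). Of the 21 members tested, 4 were higher at an unadjusted p under 0.05 (background 4.71%), the others being Cebpb (0.68 ± 0.29) and Ddit4 (0.77 ± 0.35; 0.42 without exposed animal 195), and the median was 0.01. The mean over the list lay between 1.53 and 1.76 in exposed mice and between 0.93 and 2.39 in control mice.

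Of 19 genes of fatty acid and triglyceride synthesis, 15 had a positive difference, and 11 with median centring. Over all named genes these shares were 60% and 21%. In the list, 6 genes were higher at an unadjusted p under 0.05 (background 4.71%) and the median was 0.20. None passed the adjusted threshold, and the median was 0.05 with median centring and 0.21 with a smaller background offset. These 6 were Dgat1, which makes triglycerides (0.18 ± 0.07), the acetyl-CoA carboxylases Acaca (0.39 ± 0.17) and Acacb (0.28 ± 0.13), the desaturase Fads1 (0.20 ± 0.09), the lipid droplet protein Pnpla3 (1.0 ± 0.46) and the phosphatidate phosphatase Lpin2 (0.35 ± 0.17). All 4 probes of Acaca were positive, with 0.15 to 0.39. In runs 1 and 3 the median of this list was 0.05 and -0.01. Scd1, a desaturase that marks active fat synthesis, stood at -0.11 ± 0.23. The 19 genes of cholesterol synthesis had a median of 0.10 (-0.06 with median centring), against 0.69 in run 1 and 0.25 in run 3, and 0 of them had an unadjusted p under 0.05. Lss, which makes lanosterol, stood at 0.38 ± 0.22 in run 2 and 1.31 ± 0.22 in run 1, where it passed (adjusted p = 0.0119). The difference between the runs was -0.93 ± 0.31 for Lss and did not pass (adjusted p = 0.451). Cyp7a1, which catalyses the first step from cholesterol to bile acids, stood at 5.06, 4.81, 4.85, 4.45 and 6.34 in exposed mice and at 3.32, 2.12, 4.79, 4.25 and 5.62 in control mice, a difference of 1.02 ± 0.61 (adjusted p = 0.778) with a second probe at 0.45. It was 0.55 without control animal 572 and 0.30 on the 4 shared slides.

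No acute phase gene, the usual liver answer to inflammation elsewhere, had an unadjusted p under 0.05. Lcn2, an iron-trapping protein of the acute phase and of neutrophils, stood at 0.43, 0.57, 0.85, 0.15 and 0.79 in exposed mice and at 0.85, 0.38, 0.54, -0.13 and -0.51 in control mice. The groups overlapped over most of their range. The difference was 0.32 ± 0.42 (1.25-fold; 95% interval 0.687-fold to 2.27-fold; adjusted p = 0.904), beside 2.03 ± 0.43 in run 1 (adjusted p = 0.0374). Saa1, Saa2 and Saa3, the serum amyloid A proteins, differed by 0.03 ± 0.27, 0.05 ± 0.17 and 0.09 ± 0.53, with 95% intervals up to 1.49-fold, 1.32-fold and 2.27-fold. Saa3 had stood at 2.08 ± 0.54 in run 1 (adjusted p = 0.102). The gap between runs 2 and 1 was -1.70 ± 0.60 for Lcn2 and -1.99 ± 0.76 for Saa3 and did not pass (adjusted p = 0.456 and 0.471). Orm2, an acute phase glycoprotein, stood at 0.10 ± 0.19. Over 26 acute phase genes the median was 0.05 and 0 had an unadjusted p under 0.05, with C-reactive protein (Crp) at 0.56 ± 0.35 (0.14 with processed signals). Of 30 complement and coagulation genes, 1 was higher at an unadjusted p under 0.05 (background 4.71%), which was C9 of the membrane attack complex (0.78 ± 0.38; 0.46 on the 4 shared slides).

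**Figure D2:**
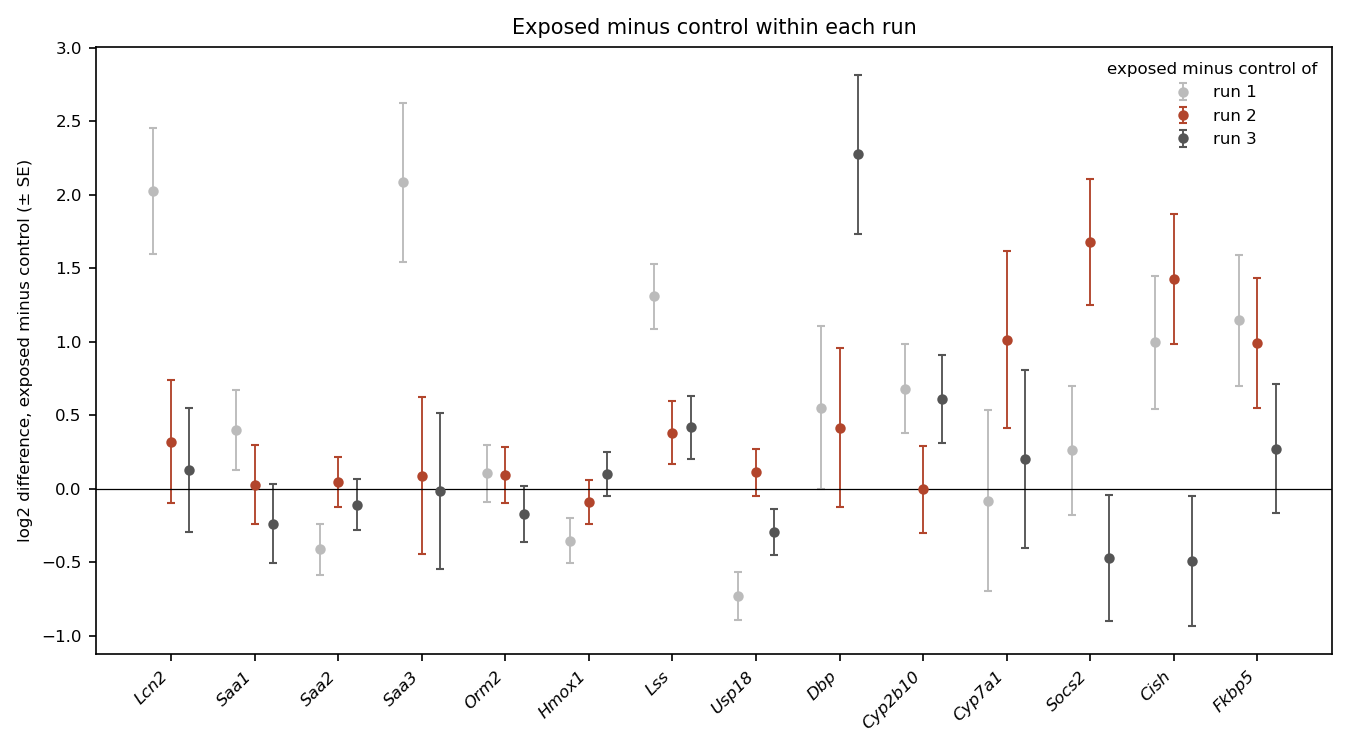
Log2 difference between exposed and control mice within run 1, run 2 and run 3 for 14 named genes, with bars of ± SE. Run 2 is in red. Lcn2, Saa3 and Lss lay above 1 in run 1 and under 0.4 in run 2, whereas Socs2 was highest in run 2.

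No gene of oxidative stress, metals and xenobiotics passed the adjusted threshold. Hmox1, which breaks down haem, lay between -1.83 and -1.08 in exposed mice and between -1.86 and -0.83 in control mice, with a difference of -0.09 ± 0.15 (95% interval 0.76-fold to 1.16-fold; adjusted p = 0.929). Over 23 NRF2-driven antioxidant genes the median was -0.03 and 0 had an unadjusted p under 0.05, with the quinone reductase Nqo1 at -0.12 ± 0.12. The metal-binding proteins Mt1 and Mt2 stood at -0.14 ± 0.38 and -0.43 ± 0.74. Cyp1a1, which the aryl hydrocarbon receptor switches on, was too dim to be tested, with a clear signal on 5 of 30 arrays, and the 6 tested genes of its list had a median of -0.01. Cyp2b10, a drug-inducible cytochrome, stood at -0.01 ± 0.30, with values between 3.47 and 3.85 in exposed mice and between 2.09 and 4.74 in control mice. Cyp2c55, a related cytochrome, was lower in every exposed animal (-1.79 to -1.13) than in any control animal (-1.07 to -0.63). The difference was -0.45 ± 0.26 (adjusted p = 0.777). This held for 1 of the 20 tested genes of its xenobiotic list (background 0.131%), and 0 of them had an unadjusted p under 0.05.

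Genes of several immune cell types mostly had small negative differences from control run 2. Adgre1, the F4/80 antigen of Kupffer cells and other macrophages, stood at 0.36, 0.86, 0.85, 0.54 and 0.95 in exposed mice and at 1.40, 1.24, 1.13, 0.74 and 1.62 in control mice. Control animal 574 lay among the exposed animals and the other controls above them. The difference was -0.52 ± 0.17 (0.70-fold; adjusted p = 0.702). Lyz2, the macrophage lysozyme, stood at -0.42 ± 0.18 and Marco, a scavenger receptor for particles, at -0.50 ± 0.34. Of 14 Kupffer cell and macrophage markers, 4 had a positive difference, 2 were lower at an unadjusted p under 0.05 (background 1.61%) and the median was -0.12 (-0.27 with median centring). It was 0.08 without control animals 572 and 573, a setting chosen after seeing the data. The summed picture overlapped, with a mean over the list between 2.72 and 3.59 in exposed mice and between 2.48 and 3.45 in control mice. Of 10 lymphocyte markers, 1 had a positive difference and 2 were lower at an unadjusted p under 0.05, namely Cd3g and the B cell receptor chain Cd79b (-0.34 ± 0.13). All 7 genes of antigen presentation by MHC class II had a negative difference, from -0.23 to -0.03 (6 of 7 with processed signals), with 0 at an unadjusted p under 0.05. Of 13 neutrophil markers 5 were bright enough to be tested, with S100a9 of calprotectin at 0.51 ± 0.35. Exposed and control mice of run 2 were also each set against the control mice of runs 1 and 3. The median of the Kupffer cell and macrophage list was then 0.047 for exposed and 0.248 for control mice. For lymphocyte markers these medians were 0.069 and 0.192, and for class II genes -0.004 and 0.147.

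Interferon genes had different medians in the 3 runs, a difference not tested for the list. The median over 34 of them was 0.06 in run 2 (-0.12 with median centring), against -0.36 in run 1 and -0.33 in run 3. Usp18, which removes the ubiquitin-like protein ISG15, stood at 0.11 ± 0.16 in run 2 and -0.73 ± 0.16 in run 1 (adjusted p = 0.0404), a gap of 0.84 ± 0.23 that did not pass (adjusted p = 0.427). Ifi35, an interferon-induced protein, was the only 1 of these 34 genes with an unadjusted p under 0.05 (0.26 ± 0.08; background 6.32%). Tnfaip3, the A20 inhibitor of NF-kB signalling, was lower in every exposed animal (-1.94 to -1.50) than in any control animal (-1.49 to -1.29). The difference was -0.31 ± 0.12 (adjusted p = 0.707). This held for 1 of 20 chemokine and cytokine signalling genes (background 0.131%).

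The median of endothelial and matrix genes was at about 0 under some scalings, and that of stellate cell markers stayed above 0. All 13 sinusoidal and vascular endothelial markers had a positive difference, with a median of 0.12, but 5 of them did with processed signals, 9 with the value table and 7 with median centring, and 0 had an unadjusted p under 0.05. Of 10 stellate cell markers 7 were positive, with a median of 0.23 (0.09 with the value table), and 2 were higher at an unadjusted p under 0.05 (background 4.71%), the smooth muscle actin Acta2 (0.33 ± 0.15) and the growth factor Hgf (0.30 ± 0.14). Of 17 collagen and matrix genes 15 were positive, 7 with median centring, with a median of 0.17 and 0 at an unadjusted p under 0.05. Over all named genes 60% were positive in the reported fit. This share was 46.2% with processed signals, 49.9% with the value table and 21% with median centring. With median centring, 9 of 13 endothelial and 14 of 17 collagen and matrix genes lay above the median of all named genes. With processed signals these counts were 8 and 15. The mean over the endothelial list lay between 2.59 and 3.33 in exposed mice and between 2.19 and 3.17 in control mice.

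**Figure D3:**
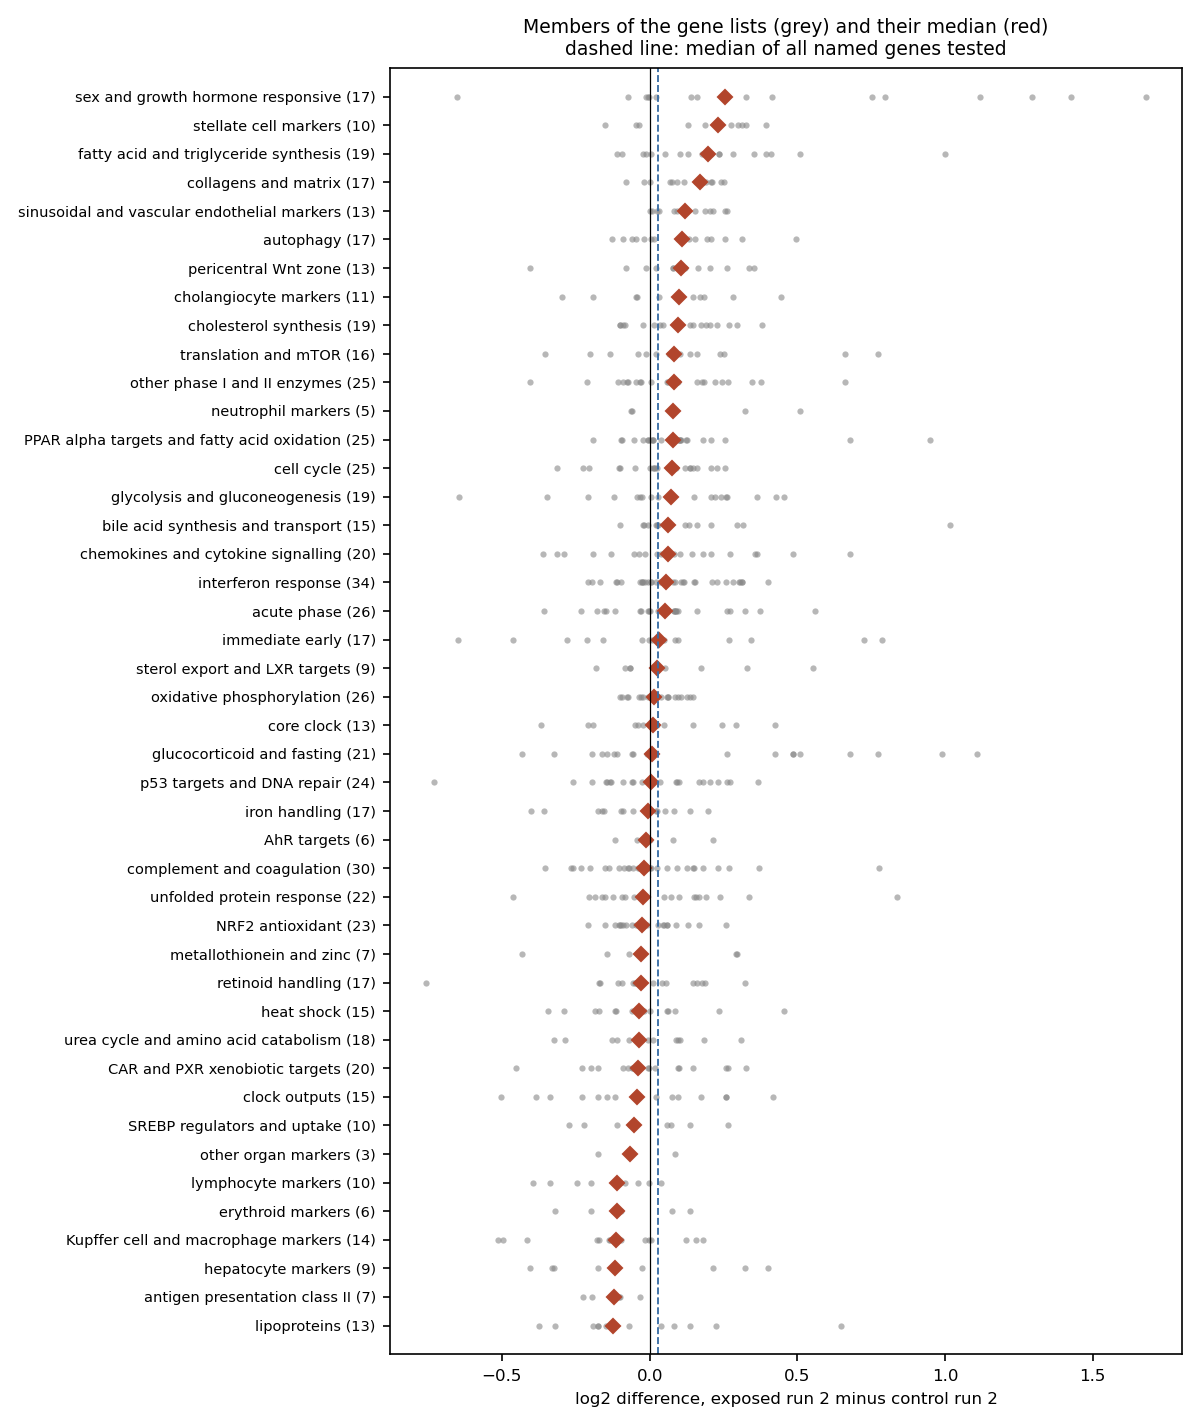
Log2 difference between exposed and control mice of run 2 for the members of 44 gene lists, 1 row per list with the number of members tested in brackets. Grey points are genes, red diamonds are list medians and the dashed line is the median of all named genes at 0.03. Medians run from -0.12 for lipoproteins to 0.26 for the growth hormone list.

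Genes of DNA repair and protein folding held a few small, even differences. Apex1, the main nuclease of base excision repair, stood at -0.16, -0.25, -0.15, -0.24 and -0.22 in exposed mice and at -0.39, -0.62, -0.44, -0.40 and -0.51 in control mice. The groups did not overlap (background 0.542%), and the difference was 0.27 ± 0.10 (1.21-fold; adjusted p = 0.707). Of 24 genes of p53 and DNA repair 5 were higher at an unadjusted p under 0.05 (background 4.71%), Apex1, Xrcc1 (0.23 ± 0.09), Ercc1 (0.26 ± 0.11), Parp1 (0.18 ± 0.08) and Phlda3 (0.37 ± 0.17). Lower was Bbc3, the p53-driven death factor Puma (-0.73 ± 0.28; background of lower genes 1.61%; -0.43 without control animal 575), with 1 exposed animal left out for a marked spot, and the median of the list was 0.01. Among 15 heat shock genes Hspb1 (0.45 ± 0.15) and Cryab (0.24 ± 0.09), small heat shock proteins, were higher in every exposed animal than in any control animal (background 0.542%), and the median was -0.04. Hspb1 averaged -0.696 in exposed and -1.155 in control mice of run 2, against -0.435 in control run 1 and -0.234 in control run 3. Of 25 cell cycle genes 1 had an unadjusted p under 0.05 (background 6.32%), and 19 had a positive difference (background 60%). The 1 gene was Gins3 of the replication helicase, which was lower in every exposed animal than in any control animal (-0.21 ± 0.09; background 0.131%). Of 17 autophagy genes 3 were higher at an unadjusted p under 0.05 (background 4.71%), Ulk1 (0.50 ± 0.24), Ulk2 (0.25 ± 0.11) and Wipi2 (0.20 ± 0.09). Over 26 subunits of oxidative phosphorylation the median was 0.01 and 0 had an unadjusted p under 0.05.

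No clock gene passed in run 2. Dbp, a clock output that peaks in the light phase, lay between -1.60 and -0.23 in exposed mice and between -2.48 and 0.68 in control mice, with a difference of 0.42 ± 0.54. In run 3 its difference was 2.28 ± 0.54 (adjusted p = 0.14). Arntl, which encodes BMAL1, stood at -0.37 ± 0.38 in run 2 and -1.45 in run 3, and Per2 at -0.04 ± 0.39 in run 2. Over 13 core clock genes 0 had an unadjusted p under 0.05.

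The run 2 response was then set against the responses of the other runs, gene by gene. The difference between the run 2 and run 1 contrasts passed for 0 of 23607 probes (0%; smallest adjusted p = 0.427), with 2195 (9.3%) at an unadjusted p under 0.05. Against run 3 it passed for 0 probes (0%; smallest adjusted p = 0.227), with 1053 (4.46%) at an unadjusted p under 0.05. Without control animal 573, 1 unnamed probe, A_52_P448994, passed against run 3 (0.97; adjusted p = 0.0159). Within run 1 alone 58 probes passed (0.246%) and within run 3 alone 2 (0.00847%), yet no probe was shown to respond differently in run 2.

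When the exposed mice of run 2 were set against the control mice of runs 1 and 3, 31 probes passed (0.131%), of which 21 rose (0.089%) and 10 fell (0.0424%), for 20 named genes. These 11 control mice are from other runs, so treatment and run cannot be told apart in this comparison. The count moved with single exposed animals: it was 0 without 195 or 196, 4 without 194, 22 without 197 and 31 without 193. Control mice of run 2 are on neither side and enter only through the shared fit, with its spread and slide term. The count was still 13 without control animal 570, 14 without 574, 42 without 575, 52 without 572 and 98 without 573. It was also 0 with slide as a fixed block or with processed signals, and 2 with median centring. With all 3 control runs averaged as the control, 4 probes passed (0.0169%), all higher in exposed mice. Among the genes that rose were Apbb3 (0.68 ± 0.11; adjusted p = 0.0177), Eif4ebp3 (0.90 ± 0.17; adjusted p = 0.0386), the haem-binding protein Hebp2 (0.57 ± 0.10; adjusted p = 0.025), Tcim, a regulator of Wnt signalling (1.32 ± 0.26; adjusted p = 0.0495), Lpin1, a phosphatidate phosphatase (1.80 ± 0.38), and Apex1 (0.39 ± 0.08). The probe A_52_P1068216 rose by 1.67 ± 0.25 (adjusted p = 0.00821). Those that fell included Retsat, a retinol saturase (-0.48 ± 0.09; adjusted p = 0.0309), Slc22a5, the carnitine transporter (-0.42 ± 0.09; adjusted p = 0.0495), Gata6, a developmental transcription factor (-0.54 ± 0.11; adjusted p = 0.0397), G0s2, an inhibitor of fat breakdown (-0.91 ± 0.19), Irf1, an interferon regulatory factor (-0.44 ± 0.09), and Cyp2c55 (-1.07 ± 0.22). Other Gata6 probes did not pass and stood at -0.274 (adjusted p = 0.167) and 0.215 (adjusted p = 0.352). Cyp2c55 averaged -1.32 ± 0.28 in exposed mice of run 2, against 0.59 ± 0.60 in control run 1 and -1.06 ± 0.46 in control run 3 (SD), so that it lay far from run 1 and close to run 3.

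Control mice of run 2 deviated from control runs 1 and 3 in the same direction as exposed mice for all 31 of these probes. Both comparisons share the same other controls, which by itself favours a common direction. Only 4 of the 31 also passed for control run 2, and 26 kept their sign when exposed mice were set against control run 2. Against the control mice of runs 1 and 3, 5 of 23607 probes passed (0.0212%), and all 5 fell. This count was 0 without control animal 575, 1 without 574, 2 without 570, 3 without 572 or 573, and 0 with processed signals or median centring. The probes belonged to Hspb1 (-0.85 ± 0.13; adjusted p = 0.00487), Retsat (-0.52 ± 0.09; adjusted p = 0.0198), the membrane protein Tmem98 (-0.41 ± 0.07; adjusted p = 0.0238) and, with 2 probes, Slc22a5 (-0.56 ± 0.09 and -0.35 ± 0.06). Retsat stood at 2.43 ± 0.22 in exposed mice of run 2 and at 2.40 ± 0.08 in control mice of run 2 (SD, n = 5 each), against 2.89 ± 0.20 in control run 1 (n = 6) and 2.93 ± 0.20 in control run 3 (n = 5). Hebp2 stood at -0.27 ± 0.23 in exposed mice and -0.42 ± 0.16 in control mice of run 2, and at -0.93 ± 0.18 and -0.76 ± 0.20 in control runs 1 and 3. Exposed and control mice of run 2 thus lay together, low for Retsat and high for Hebp2, although the Hebp2 shift of the controls did not pass (0.40; adjusted p = 0.378). For Apbb3 and the probe A_52_P1068216 control run 2 differed less from the other controls, by 0.20 (adjusted p = 0.831) and 0.06 (adjusted p = 0.984). For Lpin1 control run 2 was itself 1.25 above the other controls (adjusted p = 0.616).

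**Figure D4:**
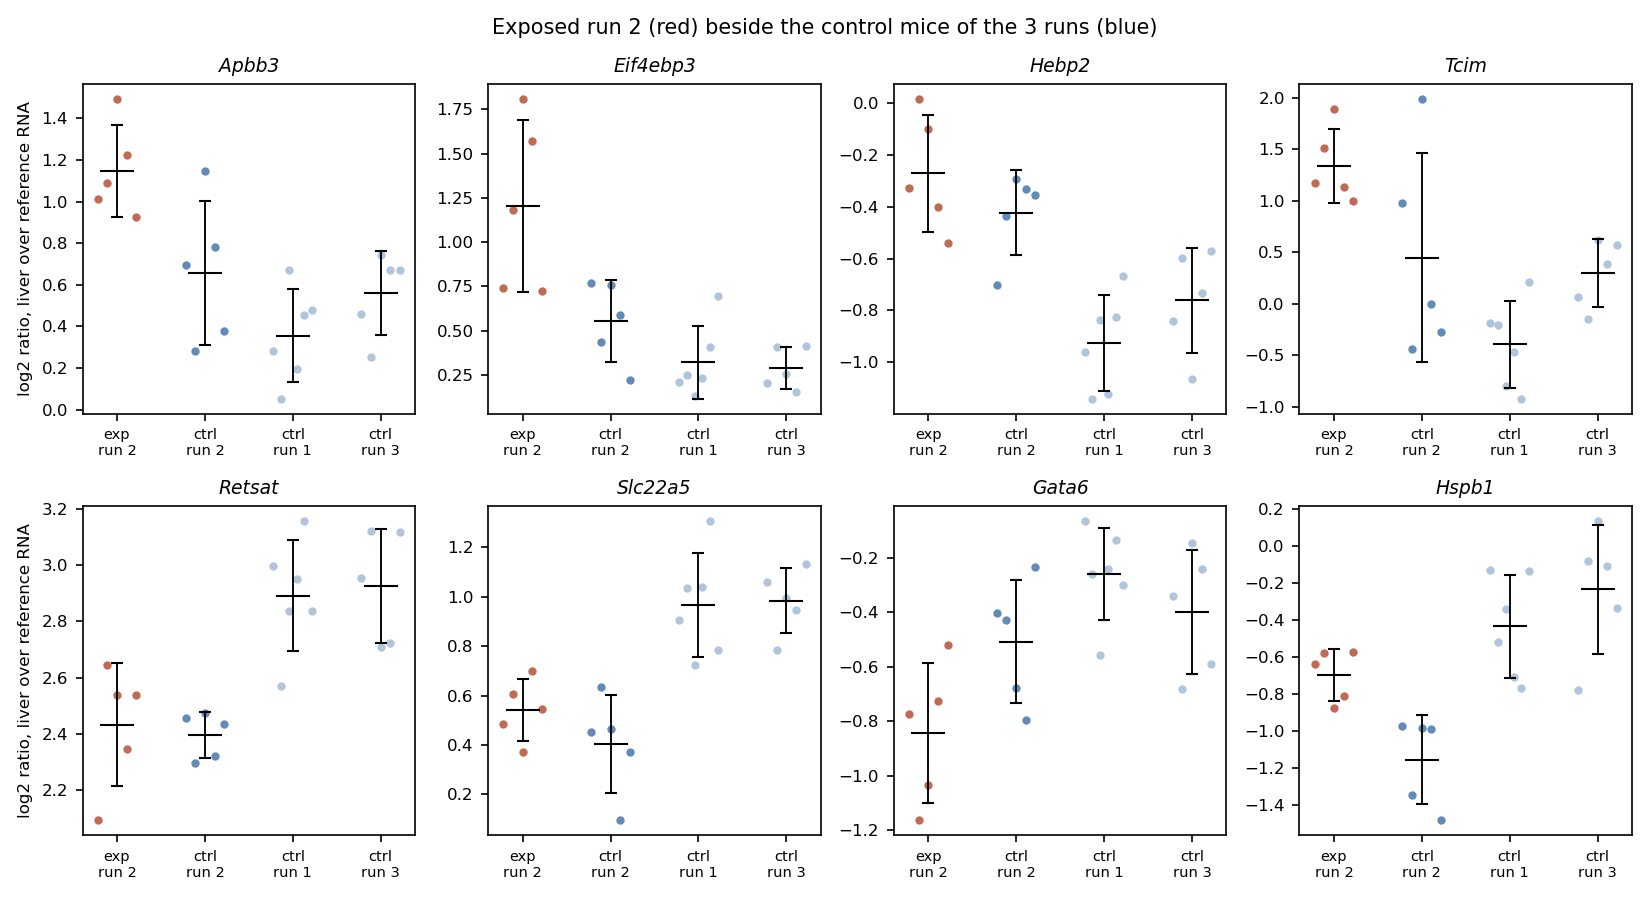
Log2 ratio of liver over reference RNA for each animal of exposed run 2 (red) and of control runs 2, 1 and 3 (blue), for 8 genes, with the mean ± SD. Retsat, Slc22a5 and Hebp2 lay at a common level in both groups of run 2, while Hspb1 was lowest in control run 2.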

How the data were processed

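Each 2-colour Agilent array held liver RNA of 1 mouse in Cy5 and a universal mouse reference RNA in Cy3. Each animal was 1 sample and no array was repeated. Spot intensity and background were measured by Agilent Feature Extraction 10.7.3.1 on 25 arrays and 10.1.1.1 on 5, per the file headers, and 3 of the latter were in run 2. The deposited value table holds log2 ratios whose direction the labels do not give. Each of its 30 columns correlated best with the log ratios of its own array (r 0.973 to 0.985, slope 0.896 to 0.939), so it runs as Cy5 over Cy3, with column medians of -0.045 to -0.0214. The scanner software's own log10 ratios, as deposited, were not used. How the authors normalized the value table is not given in the sources used here.

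Median spot signals were background corrected (normexp, offset 50) and normalized within arrays (loess) with limma 3.58.1 in R 4.3.3. Control spots had weight 0, spots with outlier flags were left out, and spots of 1 probe were averaged. Of 41174 probes, 23607 were tested, those marked well above background in Cy5 on 14 or more of the 30 arrays. Symbols came from RefSeq accessions of the GRCm38.p6 table (24375 probes), and 6534 tested probes had none. Where a gene had several tested probes, the brightest in Cy5 on average stood for it. The fit had 1 mean for each of 6 runs over 30 arrays, with slide as a random block (correlation 0.147), Benjamini-Hochberg adjustment and a threshold of 0.05. Of the 10 arrays, 8 shared 4 slides as exposed and control pairs. Control arrays always took the first positions on a slide and exposed arrays the last, so position and group cannot be told apart.

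On data simulated from these arrays (22739 probes) the fit recovered 66%, 96%, 98% and 100% of shifts of 0.5, 1, 1.5 and 2 on the log2 scale. With 50 probes shifted at each size at once, the adjusted threshold is easier to pass than with few shifted probes. Named genes were the 24 with the smallest p, the 2 members of each of 44 lists with the smallest p, a fixed set of 25 genes, and up to 6 genes passing in each other contrast. Other list members were named after their values were seen. The animals and lists were chosen with earlier results of these data known. Alternatives covered signals, scaling, filters, slide terms, weights and leaving out each animal. No column of another series entered. A few genes the naming rule picked are not reported here.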

Additional observations from a re-analysis of the deposited data

Results flagged for a closer look

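Of 286 values checked within the exposed or the control mice of run 2, 11 held 1 animal far from the other 4 of its group. Chance flags about 1 in 20 groups.

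Control animal 573 stood at 3.52 on the log2 scale for Fkbp5, with the others between -0.29 and 0.79, and at 4.73 for Apoa4, an apolipoprotein, with the others between 3.27 and 3.63. Control animal 572 stood at -2.65 for Mcm5 of the replication helicase (others -2.13 to -2.11) and at -2.27 for the enolase Eno1 (others -1.72 to -1.51). The same array had 441 spots marked as outliers, against 99 to 189 on the other control arrays of run 2. Control animal 596 of run 3, on the same slide, had 550. Control animal 570 had a median Cy3 signal of 113, against 65 to 73.

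Exposed animal 197 stood at 1.18 for Cish (others 2.74 to 3.25), at -2.22 for Zfp503 (others -2.49 to -2.43) and at -1.75 for Gins3 (others -1.57 to -1.53). Exposed animal 193 stood at -0.39 for Rftn2 (others -0.68 to -0.60), and exposed animal 196 at -1.24 for Cryab (others -1.40 to -1.36).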

How the results depend on the processing

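Exposed against control mice of run 2 gave 0 probes past the threshold under every alternative except array weights (1 probe), the mean of the 3 control runs as the control (4 probes, all higher) and leaving out 1 animal (0 to 1). Probes at an unadjusted p under 0.05 numbered 687 with median centring, 853 on the 4 shared slides, 1584 in the reported fit and 2573 without a filter. The difference from the run 1 contrast gave 0 throughout, and that from the run 3 contrast 0 to 1 when 1 animal was left out. The reference RNA gave 0 throughout. The quality measures also gave 0, but no single one of them could have passed after adjustment.

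For exposed mice of run 2 against control runs 1 and 3, the 31 probes became 0 with slide as a fixed block or with processed signals, 2 with median centring, 6 with no slide term, 7 without a filter, 8 without arrays of the older software, 10 with an offset of 16 or a filter on run 2, 13 with array position, 51 with a trended robust fit, 65 with the value table and 334 with array weights. The 2 under median centring were both higher, against 21 higher and 10 lower as reported. The array position term cannot separate the first positions of control arrays from the last positions of exposed arrays. The count with that term is therefore not adjusted for position between exposed and control mice. Without control animals 572 and 573, an alternative chosen after seeing the data, 97 passed, and leaving out 1 animal gave 0 to 98. For control run 2 against control runs 1 and 3, the 5 probes became 0 with processed signals or median centring, 1 with slide as a fixed block or without animals 572 and 573, 3 without the older software, and 0 to 5 when 1 animal was left out. The cause of these changes was not tested, beyond the fewer arrays where animals were left out. No call reversed among the genes followed in these contrasts (Apbb3, Eif4ebp3, Gata6, Hebp2, Hspb1, Retsat, Slc22a5, Tcim, Tmem98 and unnamed probes), and other called genes were not followed. Of 30 genes and probes with a difference of at least 0.5 between exposed and control mice of run 2, 15 moved by over 1.5 times under at least 1 alternative.

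Of 44 list medians, 39 changed sign under at least 1 alternative, and 5 kept theirs: growth hormone, fatty acid synthesis and stellate cell lists above 0, and class II and lymphocyte lists below it. Aquantile leaves log ratios unchanged by construction. Fits on run 2 or on the 4 slides alone cannot give contrasts with other runs. No paired analysis was possible because the groups share no replicate numbers, while the 4 slides that pair 8 of the 10 arrays were fitted as above (smallest adjusted p = 0.0723). Dim probes carry little signal over background, and 17567 of 41174 probes were too dim to be tested.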

Other observations

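Values spread more between control mice than between exposed mice of run 2. The SD between animals was larger in control mice for 14804 of 23607 probes (62.7%), with a median SD of 0.159 in exposed mice and 0.185 in control mice. This share was 56.1% without control animal 574, 57.2% without 572 and at most 65.2% without any other animal. It was 51.4% in run 1 and 59.5% in run 3. Probes are not independent of each other, and the difference in spread was not tested.

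The third principal component, with 15.2% of the variance over the 10 arrays, was led by Sult3a1, Fkbp5, Socs2, Mfsd2a, a lysolipid transporter, Noct, a rhythmic phosphatase, and Hsd3b5. Exposed mice of run 2 lay between 1.12 and 17.64 on it, in units of the log2 ratio, and control mice between -26.43 and 17.31.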
